A study of Mus musculus with 4 samples.

Results

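Fos, Fosb, Fosl1, Jun, Junb, Atf3, Egr1, Ier3, Zfp36 and Klf2 were followed in the fetal mouse epidermis, with and without deletion of histone H3K9 methyltransferases in the epithelium. These 10 genes were a list of symbols, drawn up with earlier results of these data known, and all 10 were among the 56980 genes counted. The data are single-cell RNA-seq of 4 libraries, with 2 embryos in each group. The labels give the age as E16.5, and a list of litters in the study gives a day less. Ctrl embryos were Suv39h1 f/f, Suv39h2-/-, Setdb1 f/f and lacked K14CreERT2. TKO embryos carried the same alleles with K14CreERT2, so that tamoxifen removed Suv39h1 and Setdb1 where the K14 promoter drives Cre. All groups received tamoxifen and all lacked Suv39h2. Since Ctrl had no Cre, an effect of Cre and an effect of the deletion cannot be told apart, and the study describes the recombination as mosaic. Dorsal skin was digested overnight in the cold and then briefly with warm trypsin, and living Epcam+ and integrin alpha 6+ cells were sorted. How long each embryo waited before or after these steps is not given in the sources used here.

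The 10 genes were grouped as early response genes. Most of them belong to the immediate early response, the genes that a cell switches on within minutes of a stimulus without first making new protein. Fos, Fosb and Fosl1 pair with Jun or Junb to form AP-1, a transcription factor of basic leucine zipper proteins. Atf3 is a related leucine zipper protein induced by stress, and Egr1 is a zinc finger factor induced by growth factors. Ier3 is an early gene linked to cell survival, Zfp36 (tristetraprolin) binds AU-rich elements and marks messages for decay, and Klf2 is a zinc finger factor best known from endothelium and lymphocytes. In skin, AP-1 takes part in keratinocyte proliferation, differentiation and wounding. Enzymatic dissociation is a known trigger of these genes, and so the question put to the data was whether TKO and Ctrl differed by more than the embryos of one genotype did.

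The 10 genes were compact. Their canonical transcripts spanned a median of 3446 bases in GRCm39, with a median of 2.5 exons, against 16255 bases and 7 exons over 21770 protein-coding genes. All 10 had at most 4 exons, as did 33.9% of all. Fos lies at chr12:85520658-85524047, Jun at chr4:94937271-94940459 and Ier3 at chr17:36132568-36133815. The heptamer TATTTAT, the core of the AU-rich element, occurred in the 3′ UTR of 8 of the 10 genes and of 28.2% of all protein-coding genes. Junb and Egr1 were without it. The first such site of each of the 8 genes is printed with 10 bases on either side, since these short-lived messages share it. The heptamer stands in capitals, and the RNA carries U for T.
Fos, chr12:85523878-85523904, plus strand: gttttcaattTATTTATtaagatggat
Fosb, chr7:19037252-19037278, minus strand: cacccccagcTATTTATccctttcctg
Fosl1, chr19:5505896-5505922, plus strand: gggcagctgcTATTTATtttcctaaag
Jun, chr4:94937317-94937343, minus strand: tgcttgtgcaTATTTATaatagcgttc
Atf3, chr1:190902536-190902562, minus strand: aaatattactTATTTATcccagtattc
Ier3, chr17:36133374-36133400, plus strand: gtctaattaaTATTTATgtatttatgt
Zfp36, chr7:28076392-28076418, minus strand: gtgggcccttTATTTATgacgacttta
Klf2, chr8:73074833-73074859, plus strand: aacagactgcTATTTATtggaccttag

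The 500 bases before each start site were searched on both strands for sites of factors that act on early genes. A CArG box (CC, then 6 letters A or T, then GG), where serum response factor binds, was found before 2 of the 10 genes, Fos and Fosb, and before 2.76% of protein-coding genes. The letters TGACGT, part of the CRE, the site for CREB and ATF proteins, stood before 4 of the 10 and before 9.26% of all. An AP-1 site, TGANTCA, stood before 1 of the 10 and before 12.3% of all. An NF-kB site was found before Fos, Fosb and Ier3, and before 12.3% of all. The Ier3 match lies on the opposite strand of the letters printed. The pair of CArG boxes and the NF-kB site of Ier3 are printed as examples with 15 bases on either side, the match in capitals. A link between a site and the level or share of a gene was not tested. A match says only that these letters are present. Sites farther upstream or inside the annotated transcripts were not searched, so a gene without a match may still have such sites.
Fos CArG box, chr12:85520340-85520379, plus strand: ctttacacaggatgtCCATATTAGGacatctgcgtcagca
Fosb CArG box, chr7:19044218-19044257, minus strand: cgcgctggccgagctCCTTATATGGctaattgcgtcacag
Ier3 NF-kB site, chr17:36132498-36132537, plus strand: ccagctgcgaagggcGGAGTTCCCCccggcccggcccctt

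After filters, 10701 cells remained of 19789 barcodes, and 9146 of these were keratinocytes by Krt5, Krt14 and the other keratinocyte markers. Within them 2 clusters stayed unnamed and 1 was named Merkel-like, although its TKO cells had no UMIs of Ccer2, Isl1 and Atoh1. The median keratinocyte held 17310 to 21953 UMIs in Ctrl and 28087 to 30076.5 in TKO. Clusters were named basal-like, differentiating-like and hair follicle-like from marker genes, with the 10 genes, stress genes and genes that differed by genotype left out of the clustering. Of 19789 barcodes, 39 were found in 2 libraries. Setdb1, the deleted gene with the clearest signal, was read at 68.0 and 58.3 UMIs per 1000000 UMIs in Ctrl keratinocytes and at 39.5 and 42.5 in TKO. Suv39h1 was read at 24.4 and 25.3 in Ctrl and at 24.9 and 20.1 in TKO, although 3′ reads need not report deleted exons. Suv39h2, deleted in all embryos, was still read at 14.2 to 22.5. Xist stood at no more than 0.14 UMIs per 1000000 and Y-linked messages were read in all 4 libraries, so that sex did not separate the replicates.

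In keratinocytes the 2 Ctrl embryos differed more in each of these genes than the genotypes did. The 2 TKO embryos did so for 6 of the 10, all but Fos, Fosb, Atf3 and Klf2. All 10 were highest in Ctrl replicate 2, and 8 of them were lowest in TKO replicate 2. In bulk sums of this kind, fewer cells with a message and less message per cell cannot be told apart. For each library the UMIs of all cells of a class were added up, and levels are given as UMIs per 1000000 UMIs (CPM) scaled with TMM factors. Fos stood at 359 and 1164 CPM in the Ctrl libraries, replicate 1 first, and at 454 and 239 in the TKO libraries. TKO replicate 1 lay above Ctrl replicate 1, and the groups overlapped. Fosb, the nearest relative of Fos, stood at 101 and 344 CPM in Ctrl and at 107 and 62.4 in TKO. Fosl1, which encodes FRA-1, stood at 12.1 and 50.2 in Ctrl and at 18.7 and 8.78 in TKO. The order of the libraries was that of Fos in both.

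Jun, the main AP-1 partner, stood at 732 and 1569 CPM in Ctrl and at 1082 and 369.6 in TKO. Junb, often an antagonist of Jun, stood at 159 and 495 in Ctrl and at 316 and 161 in TKO. In both genes TKO replicate 1 exceeded Ctrl replicate 1, and the groups overlapped. Atf3 stood at 209 and 683 CPM in Ctrl and at 255 and 123 in TKO. Egr1 stood at 205 and 568 in Ctrl and at 369 and 139 in TKO. Atf3 and Egr1 had the library order of Fos. Zfp36 stood at 89.9 and 294 CPM in Ctrl and at 152 and 82.2 in TKO. Klf2 stood at 13.8 and 64.7 in Ctrl and at 13.9 and 8.99 in TKO, so that 1 Ctrl library stood apart. Ier3 stood at 37.6 and 117 CPM in Ctrl and at 109.6 and 61.8 in TKO. Ier3 and Junb were the 2 genes whose lowest library was Ctrl replicate 1.

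**Figure D1:**
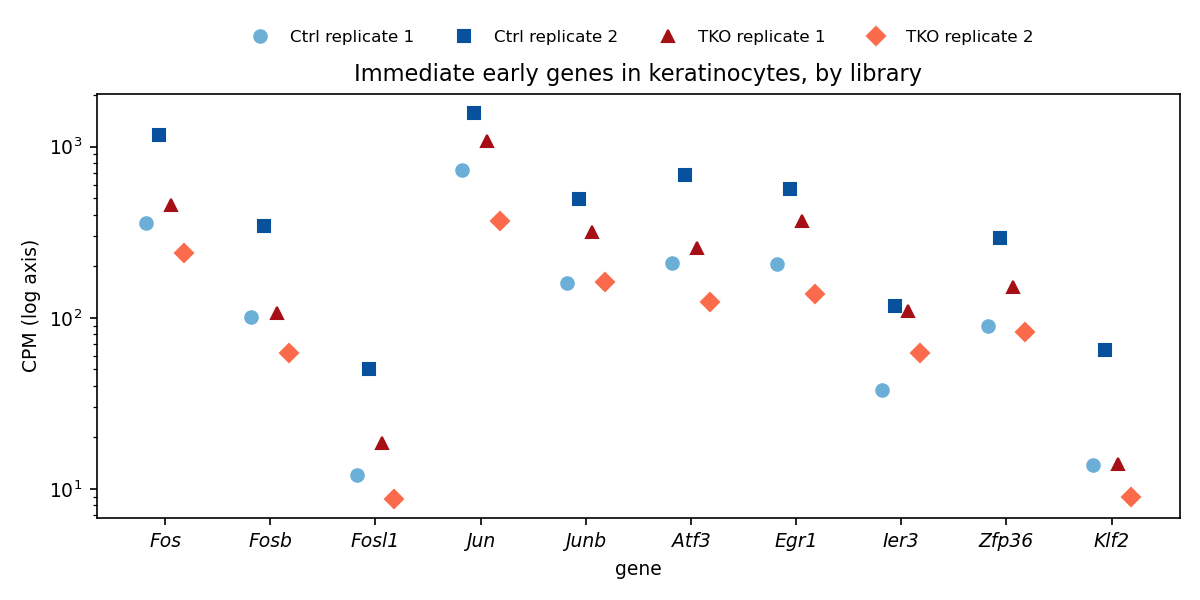
CPM of each of the 10 genes (log axis) in the keratinocytes of each library, 1 point per library. Ctrl replicate 2 is the highest point for all 10 genes, and no gene has both TKO points on one side of both Ctrl points.

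None of the 10 genes passed the test of TKO against Ctrl in keratinocytes (quasi-likelihood test of edgeR, adjusted p under 0.05 by Benjamini-Hochberg), where 6.82% of 19889 genes did. DESeq2 also called 0 of them, and 1 of 10, Klf2, had an unadjusted p under 0.05. Of the log2 changes, 9 were negative, from -1.77 ± 0.70 (SE) for Klf2 to -0.46 ± 0.57 for Junb, and that of Ier3 was 0.15 ± 0.55. Over all genes tested, 10422 of 19889 were negative. Adjusted p-values ran from 0.195 to 0.901 with edgeR. The Fos change was -1.14 ± 0.58 (adjusted p = 0.297, edgeR), and that of Jun was -0.66 ± 0.57 (adjusted p = 0.526, edgeR). No gene had both TKO libraries on one side of both Ctrl libraries, which 56.7% of all genes tested did. Without Ctrl replicate 2, the change turned positive for Fosl1, Junb, Egr1 and Zfp36, at 0.18, 0.58, 0.31 and 0.38. Without Ctrl replicate 1 that of Ier3 turned negative, at -0.44, and without TKO replicate 1 at -0.32. These intervals are wide, and they do not show that the genotypes had equal levels.

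The gap between replicates was large for these genes and not for most. The median gap between the Ctrl replicates was 1.70 on the log2 scale over the 10 genes and 0.144 over all genes tested. Between the TKO replicates the medians were 0.946 and 0.184. Among the 6497 genes within the range of mean CPM of the 10 genes, the medians were 0.105 and 0.138. The biological coefficient of variation, the spread between replicates that edgeR estimates for each gene, had a median of 0.399 over the 10 genes and 0.188 over all. Klf2 and Fosl1 had the highest values, 0.462 and 0.468, and 1.81% and 1.72% of genes tested exceeded them. Ier3 had the lowest, 0.38, which 4.63% of genes exceeded. For 0 of 10 genes was the genotype difference larger than both replicate gaps, against 44.8% of all genes tested.

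**Figure D2:**
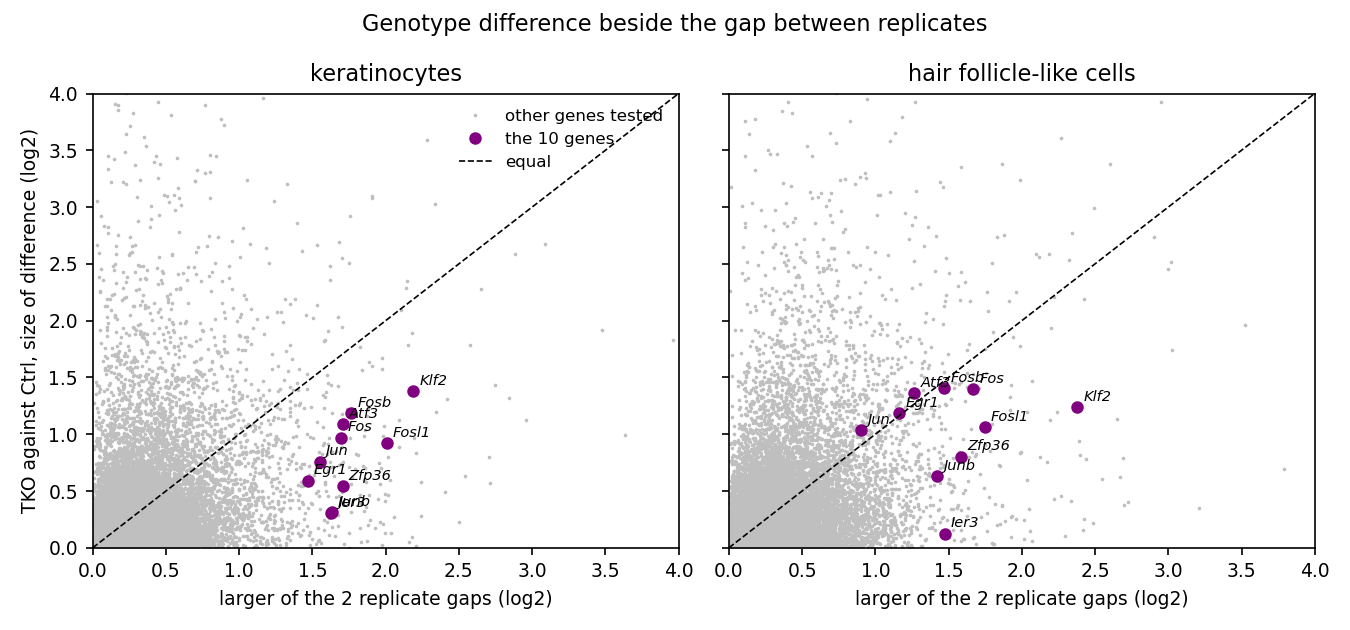
Size of the TKO against Ctrl difference (log2, vertical) beside the larger of the 2 replicate gaps (log2, horizontal) for each gene tested in keratinocytes and in hair follicle-like cells, with genes over 4 on either axis outside the frame. In keratinocytes all 10 genes (purple) lie below the dashed line of equality, and in hair follicle-like cells 3 of them, Jun, Atf3 and Egr1, lie just above it.

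In basal-like cells, the proliferative layer on the basement membrane, Ctrl replicate 2 again stood above the rest. The 10 genes together made up 1960 and 5711 UMIs per 1000000 in Ctrl and 3262 and 1399.8 in TKO, without TMM factors. All 10 genes were highest there. Klf2 was the 1 gene of 10 whose groups did not overlap, at 19.1 and 87.3 CPM in Ctrl and at 16.3 and 14 in TKO, while 58% of all genes tested did not overlap. None of the 10 passed the test, and 11.2% of 17233 genes did. Fosb and Klf2 had an unadjusted p under 0.05, and DESeq2 called 0. The log2 change of Fosb was -1.30 ± 0.49 (adjusted p = 0.143, edgeR) and that of Klf2 was -1.81 ± 0.62 (adjusted p = 0.115, edgeR). The fits without 1 library left 1 library in a group, so only their changes are read here. The log2 change ran from -1.64 to 0.12 for Fos and from -1.61 to 0.16 for Jun. For Fosb it ran from -1.91 to -0.25 and for Klf2 from -2.52 to -0.33. With the replicate number as a block, Fosb and Klf2 passed, beside 11.7% of all genes.

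In differentiating-like cells, which leave the basal layer to build the barrier, the order of libraries was another for some genes. Fos, Atf3 and Klf2 kept the order that Fos had in keratinocytes. Without TMM factors, TKO replicate 1 was highest for 5 genes and Ctrl replicate 2 for the other 5. Jun stood at 361 and 743 CPM in Ctrl and at 1049.7 and 196 in TKO. Fos stood at 265 and 721 in Ctrl and at 494 and 175 in TKO. The spread between replicates was wider here than the distance between the genotypes for both. Fosl1 was low, at 1.01 and 25.8 CPM in Ctrl and 11.1 and 4.31 in TKO. None of the 10 genes passed (0.87% of 13450 genes did), 0 had an unadjusted p under 0.05, DESeq2 called 0, and the lowest adjusted p was 0.665 (edgeR). Groups overlapped for all 10, while 46.4% of all genes did not overlap. The log2 changes ran from -0.98 ± 0.85 for Klf2 to 0.45 ± 0.54 for Ier3. Without Ctrl replicate 2 the changes of Fos, Fosb, Fosl1, Atf3, Zfp36 and Klf2 turned positive, Fos to 0.31 and Atf3 to 0.97. Without the filter on low counts 4 of 10 passed, Fos, Fosb, Atf3 and Klf2, and the share of all genes that passed was 5.7%.

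In hair follicle-like cells 5 of the 10 genes were lower in both TKO libraries than in both Ctrl libraries, and none passed the test. Fos stood at 357 and 1134 CPM in Ctrl and at 274 and 212 in TKO. Jun stood at 1159 and 2168 in Ctrl and at 1043 and 573 in TKO. Both genes were lower in each TKO library than in each Ctrl library. Atf3 stood at 255 and 614 CPM in Ctrl and at 194 and 122 in TKO. Egr1 stood at 324 and 725 in Ctrl and at 274 and 165 in TKO. Fosb stood at 139 and 384 in Ctrl and at 109 and 69.5 in TKO, which made 5 of 10 genes without overlap, beside 59% of all genes tested. The remaining 5 overlapped, Klf2 for example at 6.91 and 38.0 CPM in Ctrl and at 7.74 and 5.68 in TKO. Log2 changes were -1.62 ± 0.46 for Fos, -1.55 ± 0.44 for Fosb, -1.46 ± 0.39 for Atf3, -1.26 ± 0.37 for Egr1 and -1.04 ± 0.34 for Jun. Their adjusted p-values lay between 0.052 and 0.0929 (edgeR), and 6 of 10 genes had an unadjusted p under 0.05. None of the 10 passed, DESeq2 called 0, and 12.7% of 15975 genes passed. Other treatments of the cells did call members, Fos with each cell thinned to 5000 UMIs (6.3% of all genes called), Fos and Atf3 with at least 1000 genes per cell (12.4%), and Atf3 with under 5% mitochondrial UMIs (9.5%).

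The fits without 1 library left 1 library in a group, so only their changes are read here. The log2 change ran from -2.22 to -0.57 for Fos, -2.11 to -0.66 for Fosb and -1.96 to -0.71 for Atf3. For Egr1 it ran from -1.72 to -0.58 and for Jun from -1.56 to -0.54. Leaving out Ctrl replicate 2 moved the Junb and Zfp36 changes to 0.11 and 0.05. Jun, Atf3 and Egr1 were the 3 genes whose genotype difference exceeded both replicate gaps, against 47.1% of all genes tested.

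**Figure D3:**
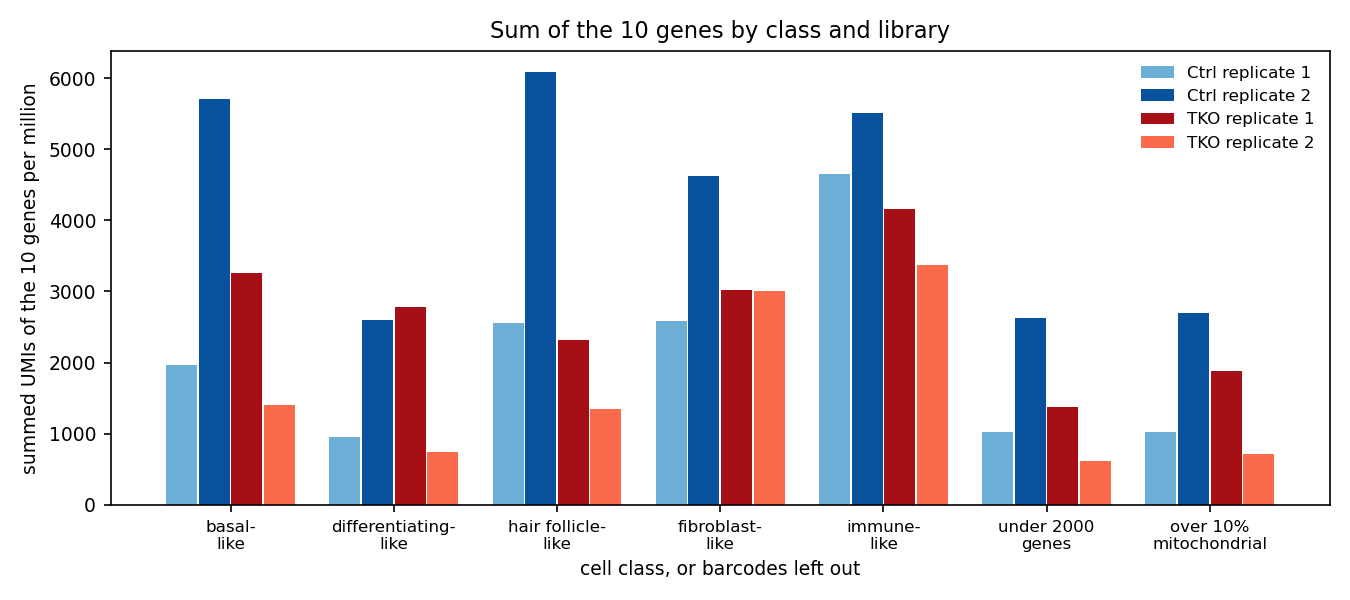
Summed UMIs of the 10 genes per 1000000 UMIs in 5 cell classes and in the barcodes left out, 1 bar per library, without error bars because each bar is 1 library. Among the groups plotted, Ctrl replicate 2 is highest except in differentiating-like cells, and the bars of the immune-like cells differ least.

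The effect of genotype was compared between classes with the library as a block. None of the 10 genes differed in their genotype effect between hair follicle-like and basal-like cells (edgeR, 1.99% of 17617 genes did). The interaction was negative for 9 of 10 genes and unadjusted p was under 0.05 for 5. Fos came closest, at -0.56 ± 0.13 (adjusted p = 0.0755, edgeR). Between differentiating-like and basal-like cells 0 of 10 differed (0.0173% of 17326 genes did), and 1 had an unadjusted p under 0.05. All 10 interactions were positive, and the lowest adjusted p was 0.185 (edgeR). The 10 genes varied together between libraries, so such counts of signs are not separate observations. Without the filter on low counts 5 of 10 genes passed the follicle interaction (3.8% of all genes), and without TKO replicate 2 it was 4 (4.03%). With each cell thinned to 5000 UMIs it was 2 (1.7%), and so it was with components not aligned between libraries (7.17%). For the differentiating-like interaction 4 genes passed without the filter on low counts (3.66%) and 5 with unaligned components (3.9%).

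Within a library, classes could be compared directly, though classes were drawn from the same cells. The basal-like class held the clusters led by the 10 genes, which are described below. In its other clusters the summed 10 genes stood lower than in differentiating-like or hair follicle-like cells, in every library. The test was not made without the clusters led by the 10 genes. Differentiating-like cells held less of 8 of the 10 genes than basal-like cells (edgeR, library as a block, 58.1% of 17326 genes were called). Ier3 was lower by the most, with a log2 change of -2.06 ± 0.15, and Atf3 followed at -1.79 ± 0.29. Both were lower in 4 of 4 libraries. Zfp36 was at -0.08 ± 0.19 and Fos at -0.30 ± 0.13, and neither passed. Hair follicle-like cells held less of 7 of the 10 than basal-like cells, where 37.4% of 17617 genes were called. Fosl1 was lower by 1.53 ± 0.06 on the log2 scale, Klf2 by 1.37 ± 0.08, Zfp36 by 1.19 ± 0.09 and Ier3 by 0.71 ± 0.05, each in 4 of 4 libraries. Jun was at 0.40 ± 0.14, higher in 3 of 4 libraries, and did not pass (adjusted p = 0.0548, edgeR). It passed without TKO replicate 1, at 0.60. Fosb, at -0.10 ± 0.07, turned positive under several other ways of drawing the cells. It passed as higher with doublets kept, with other cell filters, with members kept in the clustering and at Leiden resolution 0.5. Its adjusted p then ran from 0.00204 to 0.0409 (edgeR), beside 37.6% to 40.3% of all genes called. At 5000 UMIs per cell and with unaligned components Fosb did not pass. The calls of Fos, Junb and Atf3 in follicle cells, and of Jun, Junb, Egr1 and Klf2 in differentiating cells, were lost under at least 1 other way of drawing the classes or filtering the cells.

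The part of the 10-gene total that each gene took was compared next, and the part of Ier3 was higher in both TKO libraries. This measure and the genes named for it were chosen after the values were seen. Ier3 made up 1.96% and 2.19% of the summed UMIs of the 10 genes in Ctrl keratinocytes and 3.81% and 4.92% in TKO. In hair follicle-like cells its share was 1.53% and 1.84% in Ctrl and 3.94% and 3.85% in TKO. In basal-like cells it was 2.8% and 2.74% in Ctrl and 4.26% and 6.44% in TKO, and in differentiating-like cells 1.26% and 0.998% against 1.46% and 2.03%. Junb took 8.3% and 9.25% of the keratinocyte sum in Ctrl and 11.0% and 12.8% in TKO. In differentiating-like cells the Junb shares overlapped. Atf3 went the other way, with 10.9% and 12.8% in Ctrl and 8.86% and 9.8% in TKO, and so did Fosb, with 5.26% and 6.43% in Ctrl and 3.71% and 4.97% in TKO. With 2 libraries against 2, the exact two-sided permutation test cannot give a p below 0.33, and it gave 0.33 for Ier3, Junb, Fosb and Atf3 and also for Egr1 and Klf2 in keratinocytes. Groups without overlap were common in these data, 56.7% of all genes tested by level, and nothing is read from the number of such shares. Shares of one total are tied to each other, and they show unequal change only.

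**Figure D4:**
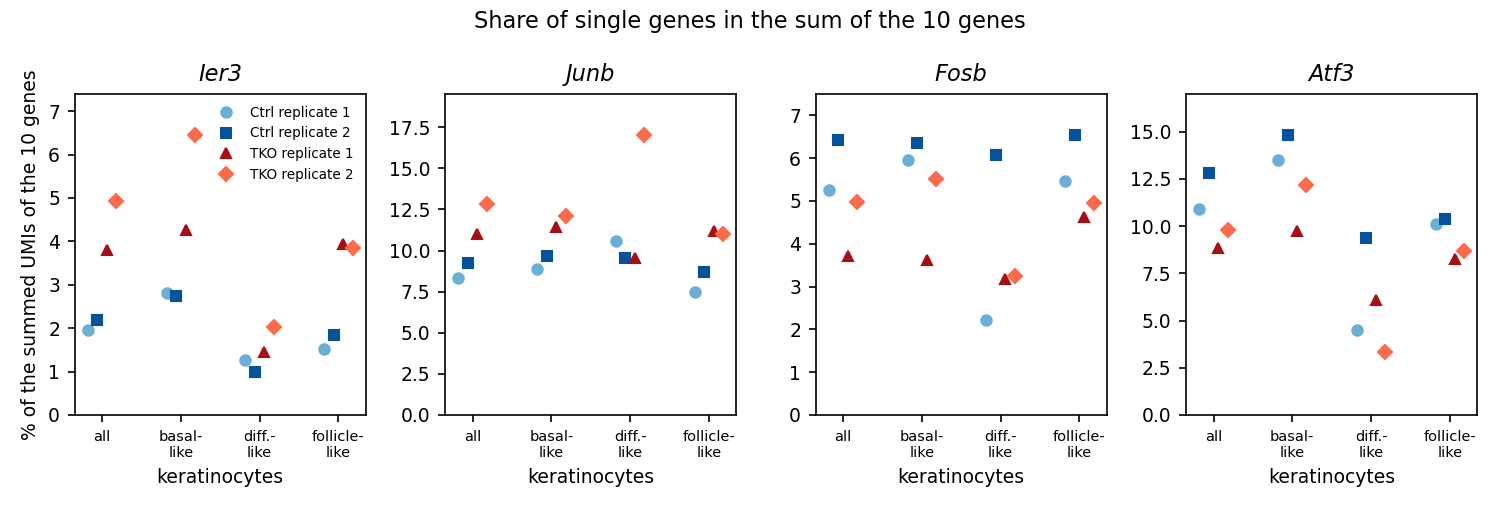
Percent of the summed UMIs of the 10 genes taken by Ier3, Junb, Fosb and Atf3 in all keratinocytes and in the 3 classes, 1 point per library. Both TKO points of Ier3 lie above both Ctrl points in each group, while the Junb, Fosb and Atf3 points of the differentiating-like cells overlap.

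Fibroblast-like and immune-like cells, whose lineages do not use the K14 promoter, gave smaller gaps than keratinocytes. In fibroblast-like cells the 10 genes summed to 2587 and 4629.9 UMIs per 1000000 in Ctrl and to 3017 and 3014 in TKO. In immune-like cells they summed to 4654 and 5512 in Ctrl and to 4161 and 3378 in TKO. The highest library exceeded the lowest by 1.63 times in immune-like cells, by 1.79 times in fibroblast-like cells and by 4.35 times in keratinocytes. Ctrl replicate 2 was the highest in all 3, and in immune-like cells both TKO libraries lay below both Ctrl libraries. Klf2 stood at 549 and 596 UMIs per 1000000 in Ctrl immune-like cells and at 519.9 and 348 in TKO. In fibroblast-like cells it stood at 230.6 and 377 in Ctrl and at 296 and 252 in TKO. Both were above its level in keratinocytes in each library. Ier3 was higher in both TKO libraries of fibroblast-like cells, with mean TKO 1.67 times mean Ctrl and 37 UMIs in the lowest library. In immune-like cells it was lower in both TKO libraries, at 0.747 times. Fosl1 stood at no more than 0.993 UMIs per 1000000 in the fibroblast-like and immune-like cells of any library. These cells were few, 63 to 282 immune-like and 107 to 190 fibroblast-like cells per library, and no fit across genes was made on them. In melanocyte-like cells, 3 to 27 per library, and endothelial-like cells, 1 to 4 per library, the sums ranged by 3.42 and 3.93 times, and the median ratio over the 9 and 6 genes with UMIs in every library was 9.16 and 6.08, against 4.65 over the 10 genes in keratinocytes.

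In the Merkel-like cluster the sums of the genotypes lay apart, and the cells themselves differed between the groups. Its Ctrl cells numbered 33 and 24 and its TKO cells 16 and 13. The 10 genes summed to 5529 and 9851 UMIs per 1000000 in Ctrl and to 1678 and 1674 in TKO. The 8 Merkel markers summed to 18864 and 22276 UMIs per 1000000 in its Ctrl cells and to 89.3 and 187 in its TKO cells. Ccer2, Isl1 and Atoh1, the last a factor that specifies Merkel cells, were at 0 UMIs in both TKO libraries. With components not aligned between libraries the cluster held 0 TKO cells. The same edgeR fit, made after these values were seen, tested 9 of the 10 genes and called 7, beside 22.6% of all genes, and 8 of the 9 did not overlap, beside 63.7% of all genes. Ier3 was the one called higher in TKO, and Junb and Zfp36 were not called. Genotype and cell identity cannot be told apart in this cluster.

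The same order of libraries was seen in the barcodes that the filters left out. Barcodes with at least 10% mitochondrial UMIs held 1028 and 2693 UMIs per 1000000 of the 10 genes in Ctrl and 1882 and 722 in TKO. Those with under 2000 genes and fewer mitochondrial UMIs held 1021 and 2621 in Ctrl and 1379 and 622 in TKO. Hspa1a, a chaperone induced by heat that was picked after its values were seen, stood at 133 and 118 CPM in Ctrl keratinocytes and at 237 and 92.0 in TKO. The median share of mitochondrial UMIs in keratinocytes lay between 1.9% and 2.47% in all 4 libraries. The part of tissue handling in the gap between embryos was not tested.

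Cell by cell, the libraries differed in how many cells held these messages and in how many copies. Each cell was thinned to 5000 UMIs, and 4 to 39 shallower keratinocytes per library were left out. A UMI of at least 3 of the 10 genes was found in 37.7% and 68.0% of Ctrl keratinocytes and in 68.6% and 30.5% of TKO keratinocytes. TKO replicate 1 and Ctrl replicate 2 thus had almost the same share, and the difference between groups was -3.285 points (exact two-sided permutation test, p = 1.0, with 0.33 the smallest p possible). Without thinning the shares gave a difference of 3.77 points, in favour of the deeper TKO cells. Fos alone was seen in 44.6% and 70.2% of Ctrl cells and in 58.8% and 31.6% of TKO cells. Fosl1 was seen in 4.48% and 14.9% of Ctrl cells and in 8.59% and 3.2% of TKO cells. Among immune-like cells, where its level was low, Fosl1 was seen in 0 of 63 and 0 of 96 in Ctrl, which allow up to 4.76% and 3.12%, and in 2 of 243 and 0 of 276 in TKO, the latter allowing up to 1.09%. The unthinned medians were 13390 to 18240 UMIs in immune-like cells and are given above for keratinocytes. Such limits cover counting error only and concern cells with a UMI, and no background level for keratinocytes is read from them.

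The median keratinocyte held 2 and 15 UMIs of the 10 genes in Ctrl and 10 and 2 in TKO, per 5000 UMIs. In Ctrl replicate 1 and TKO replicate 2 the top 10% of cells held 54.0% and 61.7% of these UMIs. In Ctrl replicate 2 and TKO replicate 1 the top 10% held 31.3% and 32.7%, and the UMIs were spread over more cells. The correlation with the mitochondrial share of a cell ran from -0.236 to -0.0337 over the 4 libraries, and that with its log UMI count from -0.00698 to 0.0292, across cells of 1 library that share their handling.

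**Figure D5:**
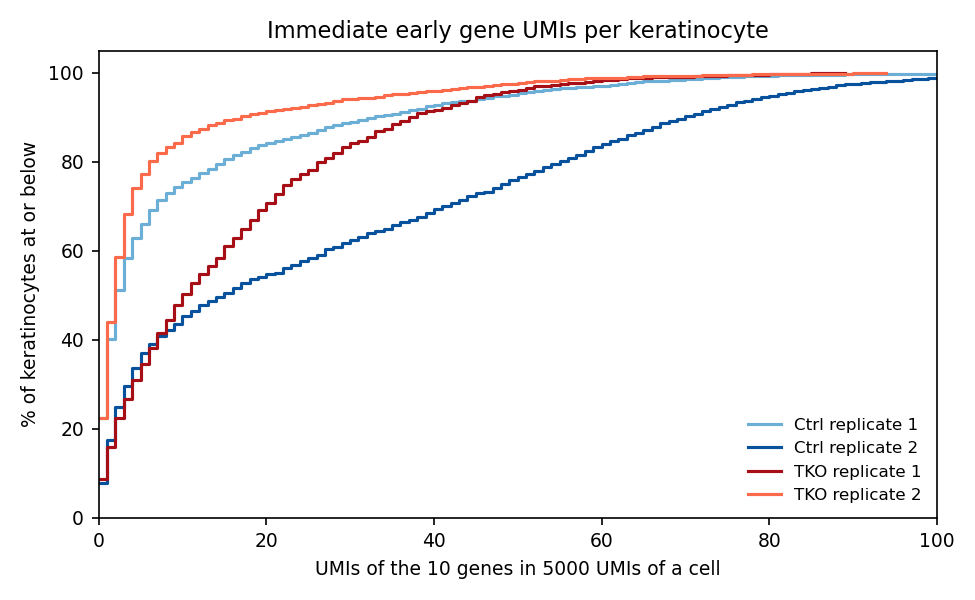
Cumulative percent of keratinocytes (vertical) at or below each number of UMIs of the 10 genes in 5000 UMIs of a cell (horizontal), 1 line per library. The lines of Ctrl replicate 1 and TKO replicate 2 start high, with medians of 2, and those of Ctrl replicate 2 and TKO replicate 1 reach the middle at 15 and 10.

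A subset of basal-like cells held high levels. Of the basal-like clusters, 2 had at least 2 of the 10 genes among their top 10 leading genes, although the 10 genes had no part in the clustering. Both were led also by Cxcl1 and Cxcl10, which encode chemokines, 1 of them by Icam1, an adhesion molecule of inflamed epithelium, and the other by Irf1, an interferon response factor. Among Ctrl keratinocytes they made up 6.98% (exact 95% interval 6.07 to 7.99) in replicate 1 and 17.1% (15.8 to 18.5) in replicate 2. Among TKO keratinocytes they made up 14.8% (13.1 to 16.7) and 6.01% (4.95 to 7.22). The intervals cover counting error only. Inside these clusters the 10 genes summed to 8605 and 12273 UMIs per 1000000 in Ctrl and 6810 and 7197 in TKO. In the other basal-like clusters they summed to 736 and 2076 in Ctrl and 1934 and 429 in TKO. The clusters were picked by these genes, and the values are a description.

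Across basal-like cells of a library the 10 genes rose and fell together. The mean correlation of log counts over the 4 libraries was highest between Fos and Atf3, 0.755, and between Fos and Egr1, 0.733. It was lowest between Fosl1 and Klf2, 0.218, which had the fewest UMIs. Of 7947 genes seen in at least 5% of cells, those whose counts most resembled the summed 10 genes included Ier2, Btg2, Nfkbia, Klf6, Dusp1, Jund and Ifrd1. Ier2 came first with a mean correlation of 0.639, Btg2, an antiproliferative early gene, had 0.628, and Nfkbia, the inhibitor of NF-kB, had 0.621. In keratinocytes Btg2 stood at 154 and 518 CPM in Ctrl and at 197 and 152 in TKO, and Nfkbia at 314 and 777 in Ctrl and 453 and 306 in TKO. Both had the library order of Fos. Correlated cells share their library, depth and handling.

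Other genes of the pathway were read from lists and tested in the same fit. Of 28 other immediate early genes in keratinocytes, 2 rose, 1 fell and 25 did not pass with edgeR, which called 6.82% of all genes. DESeq2, which called 13.3% of all genes, called 2 as raised and 7 as lowered. Plk2, a stress-induced kinase, rose from 17.5 and 25.8 CPM in Ctrl to 62.4 and 62.3 in TKO, a log2 change of 1.53 ± 0.19 (adjusted p = 0.0167, edgeR). Ccn2, a matrix protein under YAP and serum response factor, rose from 4.90 and 5.61 to 19.2 and 12.4, by 1.59 ± 0.25. Sik1, a kinase induced by cAMP, fell from 116 and 141 CPM to 82.0 and 72.6, by 0.74 ± 0.13 on the log2 scale. For these 3 genes the replicates lay close together, closer than those of Fos or Jun. Ier2 stood at 177 and 419 CPM in Ctrl and 296 and 155 in TKO and did not pass. In hair follicle-like cells 9 of the 28 fell and 3 rose with edgeR (8 and 3 with DESeq2), where edgeR called 12.7% of all genes and DESeq2 12.3%. Egr2, Egr3 and Nr4a1 were named after their values were seen. Egr2 and Egr3, relatives of Egr1, fell there by 2.54 ± 0.42 and 2.08 ± 0.51 on the log2 scale, and Nr4a1, an orphan nuclear receptor, fell by 1.45 ± 0.34.

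None of 15 other AP-1 and leucine zipper genes tested passed in keratinocytes (edgeR; DESeq2 called 1, and 6 had an unadjusted p under 0.05). In hair follicle-like cells 4 of the 15 fell and 8 had an unadjusted p under 0.05, and in basal-like cells 2 fell (edgeR, with 12.7% and 11.2% of all genes called). Jund, the constitutive Jun protein, stood at 450.4 and 782 CPM in Ctrl and 566 and 325 in TKO. Of 23 genes of upstream signalling, 1 rose with edgeR, beside 6.82% of all genes called. It was Map2k1, which encodes MEK1, from 38.2 and 36.9 CPM to 51.3 and 57.8. DESeq2 called 2 as raised and 1 as lowered, beside 13.3% of all genes. In basal-like cells 1 rose and 2 fell with edgeR, beside 11.2% of all genes called. Of 21 tested in hair follicle-like cells 1 rose and 2 fell, beside 12.7%. The receptor Egfr stood at 238 and 236 CPM in Ctrl and 325 and 293 in TKO (adjusted p = 0.0793, edgeR). None of 17 feedback inhibitors passed (edgeR; DESeq2 called 1, and 2 had an unadjusted p under 0.05). Of the 17, 2 fell in hair follicle-like cells and 7 had an unadjusted p under 0.05, and in basal-like cells 1 fell (edgeR, with 12.7% and 11.2% of all genes called). Dusp1, a phosphatase that ends MAP kinase signals, stood at 64.5 and 205 CPM in Ctrl and 86.7 and 46.5 in TKO.

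Known AP-1 targets of the epidermis moved in both directions, depending on the cells and the tool. Of 17 tested in keratinocytes, 3 rose and 0 fell with edgeR, beside 6.82% of all genes called, and 7 had an unadjusted p under 0.05. DESeq2 called 4 as raised and 2 as lowered, beside 13.3% of all genes. In hair follicle-like cells 2 of 13 rose and 3 fell with edgeR, beside 12.7% of all genes called, and 1 and 4 with DESeq2, beside 12.3%. In basal-like cells 2 of 15 rose and 0 fell with edgeR, beside 11.2% of all genes called, and DESeq2 called 2 as raised and 1 as lowered, beside 14.2%. The median log2 change of the targets tested was -0.16 in basal-like cells and 0.45 in keratinocytes. It was 2.04 in differentiating-like cells and -0.28 in hair follicle-like cells. In differentiating-like cells 3 of 12 rose and 0 fell with edgeR, beside 0.87% of all genes called, and 5 rose with DESeq2, beside 3.65%. Krt6a, a keratin of stressed and wounded epidermis, rose from 0.239 and 0.419 CPM in Ctrl to 22.7 and 82.2 in TKO, a log2 change of 7.33 ± 0.82 (adjusted p = 0.0129, edgeR). Sprr1a, a cornified envelope precursor, rose by 2.81 ± 0.39 and Hmox1, heme oxygenase, by 1.89 ± 0.25. Hmox1 also led an immune-like cluster, and immune-like cells numbered 63 and 97 in Ctrl and 244 and 282 in TKO. In immune-like cells it stood at 2968 and 3939 UMIs per 1000000 in Ctrl and at 1727 and 3720 in TKO. The 10 immune markers summed to 4.60 and 7.20 UMIs per 1000000 in Ctrl keratinocytes and to 11.6 and 15.6 in TKO keratinocytes, with Cd3e and Trdc at 0 to 2 UMIs in each library. Their part in the Hmox1 change was not tested. Krt17 stood at 372 and 457 CPM in Ctrl and 472 and 658 in TKO and did not pass. None of 6 messages that ZFP36 is known to destabilise passed (edgeR; DESeq2 called 1, and 3 had an unadjusted p under 0.05), Tnf for example at 7.30 and 16.7 CPM in Ctrl and 8.68 and 7.33 in TKO. Of 12 other KLF genes, 2 fell with edgeR and 4 with DESeq2, beside 6.82% and 13.3% of all genes. Of the 12, 5 fell in hair follicle-like cells with either tool, beside 12.7% (edgeR) and 12.3% (DESeq2) of all genes called. In basal-like cells 3 fell with edgeR and 4 with DESeq2, beside 11.2% and 14.2%. The 2 in keratinocytes were Klf13, lower by 0.93 ± 0.14 and Klf5, lower by 0.61 ± 0.12 on the log2 scale. Klf4, a factor of barrier formation, stood at 391 and 384 CPM in Ctrl and 213 and 299 in TKO (adjusted p = 0.104, edgeR). Of the 2 tested relatives of Zfp36 none passed (edgeR; DESeq2 called 0, and 1 had an unadjusted p under 0.05), and Zfp36l1 stood at 400.2 and 592 CPM in Ctrl and at 375 and 311 in TKO. Of 14 heat shock genes, 3 rose with edgeR (6.82% of all genes were called) and 6 with DESeq2 (13.3%), and both called 0 as lowered. The 3 were Hsph1, Hspd1 and Hspe1, by 0.83 ± 0.17, 0.57 ± 0.10 and 0.53 ± 0.10, and 7 of the 14 had an unadjusted p under 0.05. In basal-like cells and in hair follicle-like cells 5 of the 14 rose with edgeR, beside 11.2% and 12.7% of all genes called. In differentiating-like cells 0 did, beside 0.87%.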

How the data were processed

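UMI counts per gene and barcode were deposited by the authors as raw counts from 10x Genomics 3′ libraries of 4 embryos, made with Cell Ranger against GRCm39. The file headers name version 7.1.0, and the methods of the study name another. Barcodes with at least 2000 genes and under 10% mitochondrial UMIs were kept. Doublet scores were computed per library (Scrublet in scanpy 1.11.5), and the top-scoring barcodes were left out, 0.8% for each 1000 barcodes, 83 to 170 per library. The automatic threshold marked 0 to 37. Cells were clustered (Leiden, 30 components aligned between libraries, resolution 1.0) without the 10 genes, stress genes and genes that differed by genotype, and named from marker lists. Rebuilt names may differ from those of the study.

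Counts were summed per library and class and tested with edgeR 4.0.16 (quasi-likelihood, TMM, filterByExpr, adjusted p under 0.05), with 2 libraries a group. DESeq2 1.42.0, other filters, other clusterings and single libraries left out were alternatives. A member had 466 to 89784 UMIs in the keratinocytes of a library, so that counting error was small beside the gaps between embryos. The labels number the replicates but state no pairing, and p-values measure the spread between these embryos only. By the study, controls were generally littermates without Cre, and litter was not entered in the fits. The members and lists were chosen with earlier results of these data known. All 10 members are named, and of the other lists the genes called in keratinocytes and up to 3 of highest mean CPM. Some genes that this rule would name are not reported here. Some members overlap a gene on the other strand, such as Junb with Prdx2 and Klf2 with Eps15l1, and the chemistry keeps the strand. Gene positions are from GENCODE vM39 on GRCm39.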

Additional observations from a re-analysis of the deposited data

How the results depend on the processing

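With 2 embryos a group, 1 library decided many values. Without 1 library, keratinocytes gave 47 to 2184 genes called (1357 with all 4), basal-like cells 538 to 2918 (1938), differentiating-like cells 15 to 164 (117) and follicle-like cells 3 to 2442 (2026), the 3 without TKO replicate 1. Of the 10 members, 0 to 6 were called in basal-like and 0 to 9 in follicle-like cells. In keratinocytes the log2 changes ran from -1.86 to 0.18 for Fosl1, -1.04 to 0.58 for Junb, -1.47 to 0.31 for Egr1, -0.44 to 1.19 for Ier3 and -1.32 to 0.38 for Zfp36. In basal-like cells they ran from -1.64 to 0.12 for Fos, -1.61 to 0.16 for Jun, -1.07 to 0.65 for Junb, -1.37 to 0.68 for Egr1, -0.46 to 1.07 for Ier3 and -1.43 to 0.49 for Zfp36. In differentiating-like cells they ran from -1.50 to 0.31 for Fos, -1.92 to 1.21 for Fosb, -1.78 to 2.88 for Fosl1, -1.50 to 0.92 for Jun, -0.51 to 0.77 for Junb, -2.56 to 0.97 for Atf3, -0.81 to 1.09 for Egr1, -0.37 to 1.02 for Ier3, -0.88 to 0.53 for Zfp36 and -2.17 to 0.37 for Klf2. In follicle-like cells they ran from -1.29 to 0.11 for Junb, -0.56 to 0.90 for Ier3 and -1.53 to 0.0462 for Zfp36. Between classes, Zfp36 ran from -0.25 to 0.14 (differentiating-like) and Egr1 from -0.16 to 0.34 (follicle-like), and genotype effects differed for 0 to 162 and for 93 to 758 genes, with 0 to 4 members in the latter.

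The replicate number shares no stated source between groups, and the replicate block gave 529 genes in keratinocytes and 20 in differentiating-like cells, with 2 members in basal-like cells, and turned Fosl1 to 0.18 and Jun to -0.19 in differentiating-like and Ier3 to 0.12 in follicle-like cells. Deviations of same-numbered libraries correlated at -0.34, -0.20, -0.39 and -0.11 in the 4 cell groups. A crossed pairing, chosen after seeing the data, called 3568, 3130, 1288 and 2281 genes in keratinocytes, basal-like, differentiating-like and follicle-like cells (17.9%, 18.2%, 9.58% and 14.3% of all genes) and 7, 6, 3 and 8 members.

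DESeq2 called 2647 genes in keratinocytes and 491 in differentiating-like cells. Without the expression filter the counts were 633, 1499 and, in follicle-like cells, 1249, with 2 members called (8.56% of all genes) and 2 without overlap in basal-like cells and 4 called (5.7%) in differentiating-like cells. Beside each count of members without overlap given here, 44.8% to 60.5% of all genes did not overlap in the same fit. Genotype effects then differed for 1161 genes and 4 members (differentiating-like) and 1231 genes and 5 members (follicle-like). With library totals only, Zfp36 in differentiating-like cells turned to 0.0889 and Fosb between follicle-like and basal-like cells to 0.0171. At 5000 UMIs per cell, 1 member did not overlap in keratinocytes, and 1177, 178 and 740 genes were called in the 3 classes, with 1 member in follicle-like cells. There Fosl1 and Zfp36 turned to 0.16 and 0.25 in differentiating-like cells, Ier3 to 0.0036 in follicle-like cells and Fosb between classes to 0.10. Follicle-like against basal-like cells then gave 3945 genes, and genotype effects differed for 133 and for 226 genes and 2 members.

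With doublets kept, 2 members did not overlap in basal-like cells, 242 and 1219 genes were called in the other 2 classes, effects differed for 107 and 925 genes, and Zfp36 and Fosb between classes turned to 0.0413 and 0.20. With at least 1000 genes a cell, keratinocytes gave 708 genes and follicle-like cells 2 members, Junb in differentiating-like cells turned to -0.083, effects differed for 57 genes, and Zfp36 and Fosb turned to 0.0361 and 0.25. With at least 3000 genes, follicle-like cells gave 1248 genes, Junb turned to -0.0844, 5 members were called between differentiating-like and basal-like cells (59.5% of all genes), effects differed for 28 and 944 genes, and Zfp36, Fos, Fosb and Junb between classes turned to 0.14, 0.0155, 0.43 and 0.0286. With under 5% mitochondrial UMIs, 1 member did not overlap in keratinocytes and 2 in basal-like cells, 1 was called in follicle-like cells, Junb turned to -0.027, effects differed for 41 and 1009 genes, and Zfp36 and Fosb turned to 0.0483 and 0.28.

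With uncorrected components, 2 members did not overlap in basal-like and 2 in follicle-like cells, and 463 and 1231 genes were called in differentiating-like and follicle-like cells. Ier3 turned to -0.40 in basal-like cells and Zfp36 to 0.0122 in differentiating-like cells. Between differentiating-like and basal-like cells 4 members were called (61.1% of all genes), effects differed for 628 genes and 5 members and for 1221 genes and 2 members, and Zfp36 and Fosb turned to 0.21 and 0.19. With members and stress genes kept in the clustering, 2 members did not overlap in basal-like cells, follicle-like cells gave 1099 genes, effects differed for 31 and 797 genes, and Fosb turned to 0.22. At Leiden resolution 0.5, 2 members did not overlap in basal-like cells, follicle-like cells gave 1192 genes, Junb in differentiating-like cells turned to -0.0635, 5 members were called between the same classes (58.3%), effects differed for 904 genes, and Zfp36, Fosb and Junb turned to 0.20, 0.50 and 0.0733. The share of cells with at least 3 members moved to 3.77 points unthinned. In the Merkel-like cluster, fitted after seeing the data, 4 members were called with doublets kept and 3 with at least 1000 genes a cell, against 7, and the shares of all genes were 16.2% and 9.14%, against 22.6%. The causes were not tested.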
